A study of Mus musculus with 4 samples.

Results

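The 33 genes described here are Myc, its classical target Odc1, and 31 genes for the assembly of ribosomes. They were chosen by name, with no measured value in the rule, and stand among 20956 genes with a level on the arrays. Each gene is represented by its brightest probe, and all 33 had a probe that was well above background on all 4 arrays. The cells are 3T3-L1, a mouse preadipocyte line that becomes fat cells under adipogenic hormones. The groups, with 1 array each, were Lamp2a knockdown (labelled lamp2a-) cells at day 2, control cells at day 2, Lamp2a knockdown cells at day 0 and control cells at day 0. Day 0 is confluence in growth medium with 10% serum, and day 2 follows the change to that medium plus 0.5 mM isobutylmethylxanthine, 250 nM dexamethasone and 160 nM insulin. All day 2 cultures had the hormones, so hormone exposure and elapsed time cannot be told apart. The sources used here do not say how the knockdown was made or whether control cells carried a construct.

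Myc is a transcription factor that dimerises with Max, binds the E box CACGTG and drives growth programmes. Ribosome assembly is among its best known outputs: RNA polymerase I transcribes the ribosomal RNA precursor in the nucleolus, small nucleolar ribonucleoproteins modify it, and large complexes cleave and fold it into the small (40S) and large (60S) subunits. In preadipocytes, hormonal induction is known to bring on a brief phase of renewed division before terminal differentiation, and ribosome assembly is generally high in dividing cells.

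The short stretches below show where the E box CACGTG, which reads the same on both strands, lies in the members' promoter windows. The windows come from RefSeq, build GRCm38.p6, and run from 250 bases before to 50 after the annotated start. Of the 33 members, 27 matched a window; Myc, Npm1, Fbl, Rrp12, Bop1 and Rrs1 did not. The E box was present in 7 of these 27 genes (25.9%), against 8.09% of 27025 genes with a window and 11.7% of 9129 bright genes with one. Each stretch is given on the gene's own strand, with the E box in capitals.
Ltv1: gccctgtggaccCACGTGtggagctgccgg
Mybbp1a: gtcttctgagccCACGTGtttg
Nop2: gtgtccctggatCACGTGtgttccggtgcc
Pes1: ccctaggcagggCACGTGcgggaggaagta
Tsr1: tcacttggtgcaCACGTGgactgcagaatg
Utp20: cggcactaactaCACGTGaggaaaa
Wdr43: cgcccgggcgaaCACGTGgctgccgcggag
The Ltv1 stretch is chr10:13193092-13193121 (minus strand), the Mybbp1a stretch chr11:72441355-72441376 (plus), the Nop2 stretch chr6:125131811-125131840 (plus) and the Pes1 stretch chr11:3963965-3963994 (plus). The Tsr1 stretch is chr11:74898092-74898121 (plus), the Utp20 stretch chr10:88826765-88826789 (minus) and the Wdr43 stretch chr17:71616220-71616249 (plus). The E box of Nop2 begins at position -60, before the start. Those of Pes1, Wdr43, Tsr1, Ltv1, Utp20 and Mybbp1a begin after it, at positions 3, 18, 25, 29, 38 and 41, where position 1 is the start.

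The variant hexamer CACGCG, or CGCGTG on the other strand, was present in 8 of the 27 members with a window (29.6%), against 10.5% of all genes and 19.7% of bright genes with a window. Copies were counted separately from CACGTG, and partial overlap between them was allowed. The 250 bases before the start of Odc1, the member with the largest difference between days and in the knockdown time course, are shown with both of its copies in capitals, at positions -180 and -101 (GRCm38.p6, chr12:17544623-17544872, plus strand).
Odc1: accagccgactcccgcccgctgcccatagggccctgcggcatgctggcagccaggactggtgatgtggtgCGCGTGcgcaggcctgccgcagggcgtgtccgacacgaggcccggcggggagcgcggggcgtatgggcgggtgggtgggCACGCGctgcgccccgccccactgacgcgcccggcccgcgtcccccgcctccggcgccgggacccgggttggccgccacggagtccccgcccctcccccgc
The E boxes through which Myc is known to act on Odc1 lie in its first intron, outside this window. A match is a description of the letters and not a binding site.

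Values below are scaled signals, the processed signal of a probe divided by the 75th percentile of its array. They can be set against each other across arrays for 1 gene, and not between genes, since probes differ in brightness. With a single array in each group there were no replicates, and neither tests nor p-values are reported. Called genes are those whose scaled signals differed by at least 2-fold. Probes printed 10 times in the members' range of brightness varied between spots with an SD of 0.06 to 0.07 in the log2 ratio, which is error within arrays only. In RNA from whole cultures, fewer cells expressing a gene and less RNA per cell cannot be told apart.

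Some features of the arrays touch the results. Of 59305 spots, between 88.6% (knockdown day 0) and 67.4% (control day 0) were well above background. The control day 0 array was on slide 1 and the other arrays on slide 2. Each value that uses this array (knockdown over control at day 0, day 2 over day 0 in control cells, and the difference between days) crosses slides, and there slide cannot be told apart from group. Members are therefore read beside the 11394 bright genes, of which all 33 are part; these have a mean level above the 95th percentile of 1072 olfactory receptor genes. Of 2 Lamp2 probes, one read lower in knockdown cells by 3.51-fold at day 2 and by 4.13-fold at day 0, and the other by 1.08-fold and 1.29-fold. Of 10 preadipocyte and fibroblast markers, 9 were well above background on all arrays. Of 5 epithelial markers, Krt18 and Cldn4 were so on all arrays, Cdh1 and Krt8 on 1 array each and Epcam on none; none of the 5 was a bright gene, and their summed scaled signals were 0.128 in knockdown and 0.143 in control cells at day 2, and 0.371 and 0.0878 in knockdown and control cells at day 0. The 6 macrophage and leukocyte markers with a probe had summed scaled signals of 37.7 and 27.3 in knockdown and control cells at day 2, and of 30.6 and 17.6 at day 0. Such sums weigh the brightest probes most. The part of these markers in the results below was not tested.

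Myc itself was higher at day 2 in both kinds of cell, and knockdown cells had more of it before induction. Its scaled signal was 9.44 in knockdown and 8.96 in control cells at day 2, and 4.53 in knockdown and 2.92 in control cells at day 0. The day 2 arrays were thus both above the day 0 arrays and close to each other. Day 2 was 2.08-fold above day 0 in knockdown cells and 3.07-fold in control cells. Knockdown cells stood 1.05-fold above control cells at day 2 and 1.55-fold above them at day 0. Under 10 other ways of processing that keep the 2-fold size, the log2 ratio of day 2 over day 0 lay between 0.95 and 1.08 for Myc in knockdown cells, and it was under 2-fold after quantile and cyclic loess normalization. In control cells it lay between 1.60 and 1.69.

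Odc1, ornithine decarboxylase, makes the precursor of the polyamines and did not follow Myc. Its scaled signal was 5.30 in knockdown and 9.71 in control cells at day 2, and 19.7 in knockdown and 13.2 in control cells at day 0. The knockdown arrays held both the lowest and the highest value of the series, with the control arrays between them. Day 2 was 3.72-fold below day 0 in knockdown cells and 1.36-fold below it in control cells. Knockdown cells were 1.83-fold lower than control cells at day 2 and 1.49-fold higher at day 0, so the log2 ratios of the days differed by -1.45.

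The other 2 probes of Odc1 gave the same order of the arrays. One read 0.585 in knockdown and 1.20 in control cells at day 2, and 2.71 in knockdown and 2.26 in control cells at day 0. The other read 0.374 and 0.803 in knockdown and control cells at day 2, and 1.27 and 0.975 in knockdown and control cells at day 0. On these probes the knockdown was 2.06-fold and 2.15-fold lower than control at day 2, past the 2-fold size that the brightest probe missed. The bars of scaled signal for Myc and the 3 Odc1 probes show the contrast: Odc1 was lowest on the knockdown day 2 array, where Myc was highest.

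**Figure D1:**
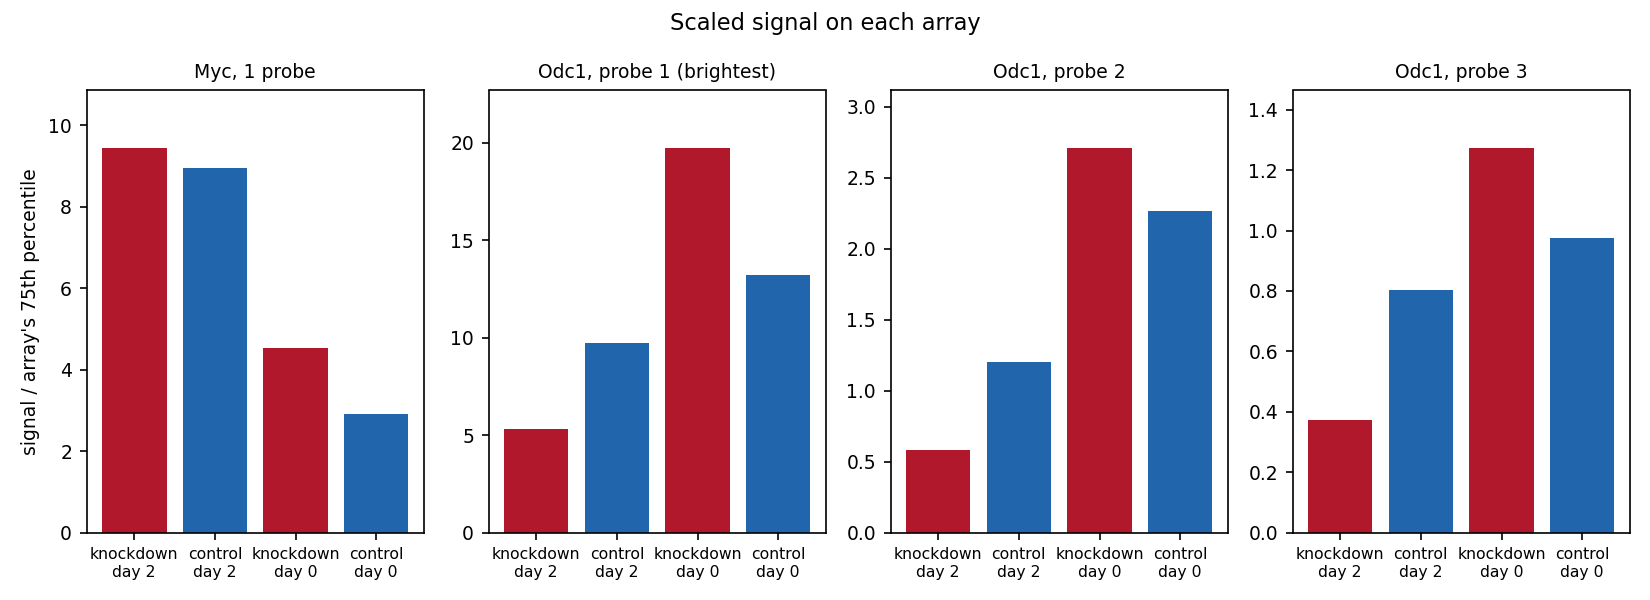
Scaled signal (signal over the 75th percentile of its array, linear axis from 0) of the Myc probe and of the 3 Odc1 probes on each of the 4 arrays, 1 bar per array, with no error bar because each group has 1 array. Each panel has its own axis. Myc was highest at day 2 in both kinds of cell (9.44 in knockdown and 8.96 in control cells), while every Odc1 probe was highest in knockdown cells at day 0 and lowest in knockdown cells at day 2.

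Across the 33 members, the knockdown was slightly lower than control at day 2 and slightly higher at day 0. At day 2 the median log2 ratio of knockdown over control was -0.07, with 10 members above 0 and 23 below, against 0.04 for bright genes, of which 55.6% were above 0. At day 0 the median was 0.24, with 24 members above 0 and 9 below, against -0.02 for bright genes, of which 48.0% were above 0. No member was 2-fold higher or lower on either day. Among all genes compared, 2.89% were 2-fold higher and 4.1% lower at day 2, and 18.4% were higher and 4.2% lower at day 0; among bright genes these shares were 3.02%, 3.61%, 5.63% and 3.1%. The sign of the member median was the same under all 10 other settings, from -0.13 to -0.07 at day 2 and from 0.23 to 0.31 at day 0.

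The log2 ratio was lower at day 2 than at day 0 in 32 of 33 members, and in at least 30 of them under each other setting. The exception was Nop14, with a difference of 0.31, which lay between 0.03 and 0.31 under the 10 other settings. Its log2 ratio at day 2, 0.02, was above 0 under 4 of them. Of the other members, Utp20 (-0.12) and Rrp12 (-0.20) had a difference above 0 under some settings, up to 0.14 and 0.15. The median difference was -0.32 over the members and 0.08 over bright genes, of which 58.3% were above 0. With genes split into 5 classes of brightness, 2 members lay in class 3, where the median difference over genes was -0.28. The rest lay in classes 4 and 5, the brightest, with medians of 0.13. On the brightest probes, only Odc1 passed 2-fold in this difference. Among all genes 2.9% were past it upward and 16.9% downward, and among bright genes 2.66% and 6.63%. A second and dimmer Ddx21 probe had a difference of -1.21, against -0.34 on the brightest. In 15 members the knockdown was below control at day 2 and above it at day 0, in 9 it was above on both days, in 8 below on both, and in Nop14 it was above at day 2 and below at day 0. The shares of bright genes with each of these orders were not counted. Many of the ratios within a day are small: 19 members at day 2 and 7 at day 0 lay within 2 spot SDs of no difference. The difference between days was near 0 in some members, at -0.0015 in Mybbp1a, -0.02 in Npm1, -0.03 in Gnl3 and -0.04 in Wdr75.

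**Figure D2:**
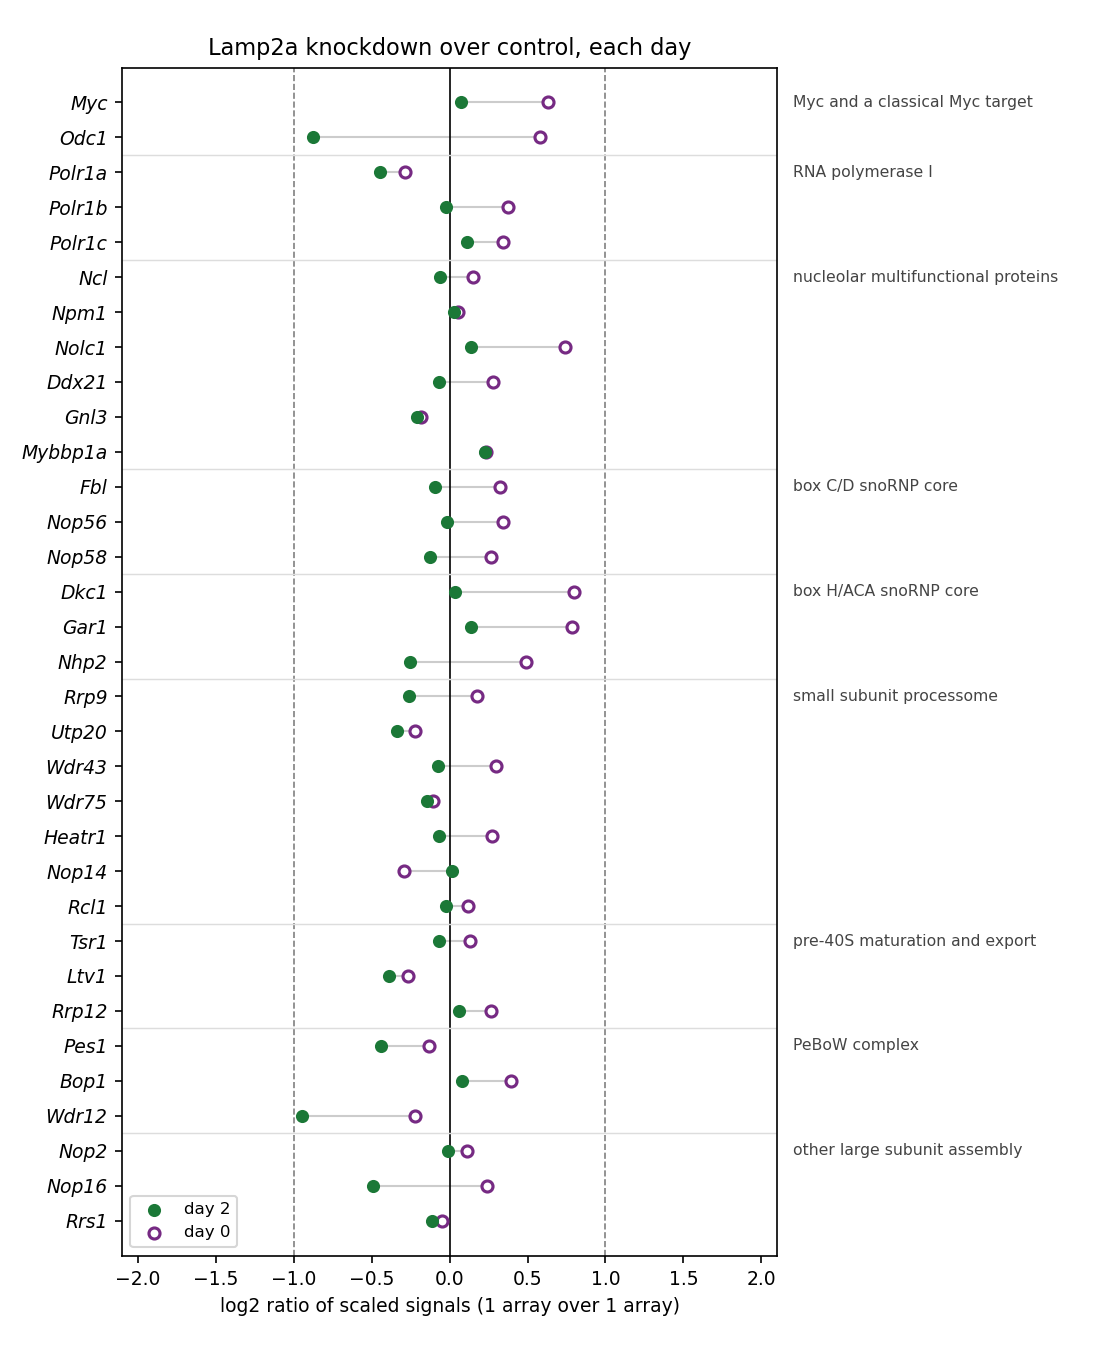
Log2 ratio of scaled signals, knockdown over control, for each of the 33 members at day 2 (filled) and day 0 (open), grouped by role; each point is 1 array over 1 array, and dashed lines mark 2-fold. The filled point lies left of the open point in every member but Nop14, and the widest gap is that of Odc1 (-0.87 at day 2 and 0.58 at day 0).

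The core proteins of the box H/ACA particles, which guide the conversion of uridine to pseudouridine in ribosomal RNA and are also part of telomerase, had the highest day 0 median of the roles. Gar1, a core protein of these particles, read 20.7 in knockdown and 18.8 in control cells at day 2, and 31.8 in knockdown and 18.4 in control cells at day 0. Nhp2, an RNA-binding core protein, read 28.1 and 33.6 in knockdown and control cells at day 2, and 40.3 and 28.7 in knockdown and control cells at day 0. Dkc1, the pseudouridine synthase, read 2.62 and 2.56 in knockdown and control cells at day 2, and 3.60 and 2.07 in knockdown and control cells at day 0. For all of them the knockdown day 0 array was the highest of the series, with the other arrays below it. The knockdown was 1.72-fold above control at day 0 for Gar1, 1.41-fold for Nhp2 and 1.74-fold for Dkc1. The median log2 ratio of the group was 0.04 at day 2 and 0.79 at day 0; over the other settings it lay between -0.02 and 0.04 at day 2 and between 0.70 and 0.86 at day 0.

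The core proteins of the box C/D particles, which guide ribose methylation in ribosomal RNA, were also above control at day 0 in knockdown cells. The margin was smaller. Nop56, a scaffold protein, read 40.5 in knockdown and 40.9 in control cells at day 2, and 34.0 and 26.8 in knockdown and control cells at day 0. Nop58, its partner scaffold, read 14.2 and 15.5 in knockdown and control cells at day 2, and 16.0 and 13.3 in knockdown and control cells at day 0. The control day 0 array was the lowest for both. Fbl, the methyltransferase fibrillarin, had log2 ratios of knockdown over control of -0.10 at day 2 and 0.32 at day 0, and the group's medians were also -0.10 and 0.32.

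The subunits of RNA polymerase I did not share a direction. Polr1c, which RNA polymerase III also uses, read 18.9 in knockdown and 17.5 in control cells at day 2, and 16.0 and 12.6 in knockdown and control cells at day 0. Polr1a, the largest subunit, read 5.59 and 7.60 in knockdown and control cells at day 2, and 5.52 and 6.73 in knockdown and control cells at day 0. Polr1c was thus higher in knockdown cells on both days and Polr1a lower on both. Polr1b, which forms the catalytic centre with Polr1a, had log2 ratios of knockdown over control of -0.02 at day 2 and 0.37 at day 0.

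Among nucleolar proteins with several roles, Mybbp1a, a Myb-binding protein of the nucleolus, read 44.1 in knockdown and 37.6 in control cells at day 2, and 41.4 and 35.3 in knockdown and control cells at day 0. Gnl3, the GTPase nucleostemin, read 6.31 and 7.30 in knockdown and control cells at day 2, and 5.00 and 5.68 in knockdown and control cells at day 0. The knockdown was 1.17-fold higher on both days for Mybbp1a, and 1.16-fold and 1.14-fold lower at day 2 and day 0 for Gnl3. Nolc1, a chaperone of small nucleolar ribonucleoproteins, read 11.5 and 10.4 in knockdown and control cells at day 2, and 13.3 and 7.99 in knockdown and control cells at day 0. Its knockdown day 0 array was 1.67-fold above control, but a second and dimmer Nolc1 probe was 1.12-fold lower there. At day 2, nucleolin (Ncl), a histone and RNA chaperone, had a log2 ratio of -0.06 and the RNA helicase Ddx21 one of -0.07. Nucleophosmin (Npm1), another nucleolar chaperone, had 5 probes: the brightest gave log2 ratios of 0.03 at day 2 and 0.05 at day 0, and the others gave 0.19 to 0.36 at day 2 and 0.23 to 0.80 at day 0.

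The small subunit processome, the complex that cleaves the small-subunit end of the precursor, held the sole member whose ratio was greater at day 2. Nop14, one of its assembly factors, read 2.66 in knockdown and 2.63 in control cells at day 2, and 2.34 and 2.86 in knockdown and control cells at day 0. Utp20, a very large scaffold protein, read 0.374 and 0.473 in knockdown and control cells at day 2, and 0.571 and 0.667 in knockdown and control cells at day 0. The arrays of Nop14 lay close together, while Utp20 was lower in knockdown cells on both days and lower at day 2 in both kinds of cell. The scaffold proteins Wdr43, Wdr75 and Heatr1, the U3-binding protein Rrp9 and the cleavage factor Rcl1, whose role is known from yeast, had log2 ratios of knockdown over control from -0.26 (Rrp9) to -0.02 (Rcl1) at day 2 and from -0.11 (Wdr75) to 0.30 (Wdr43) at day 0.

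For the later small-subunit factors, Rrp12, which takes part in export of the subunits from the nucleus, read 0.396 in knockdown and 0.379 in control cells at day 2, and 0.441 and 0.367 in knockdown and control cells at day 0. Ltv1, which leaves the particle late in its maturation, read 4.43 and 5.79 in knockdown and control cells at day 2, and 6.08 and 7.30 in knockdown and control cells at day 0. Ltv1 was lower in knockdown cells on both days, by 1.31-fold at day 2 and 1.20-fold at day 0. Tsr1, a GTPase-like factor of the same particle, had log2 ratios of -0.07 at day 2 and 0.13 at day 0. The Rrp12 log2 ratio at day 0, 0.27, was -0.11 after cyclic loess normalization.

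Wdr12 had the lowest knockdown ratio of all members at day 2. It forms the PeBoW complex with Pes1 and Bop1, which acts on the precursor of the large subunit. Wdr12 read 1.53 in knockdown and 2.95 in control cells at day 2, and 1.72 and 2.00 in knockdown and control cells at day 0. Bop1 read 8.58 and 8.14 in knockdown and control cells at day 2, and 7.77 and 5.91 in knockdown and control cells at day 0. The partners thus differed: the control day 2 array stood alone as the highest for Wdr12, 1.92-fold above knockdown, while the control day 0 array was the lowest for Bop1. Pes1 read below control in the knockdown, by 1.35-fold at day 2 and 1.10-fold at day 0.

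Of the other large-subunit factors, Nop16 read 2.51 in knockdown and 3.52 in control cells at day 2, and 2.99 and 2.53 in knockdown and control cells at day 0. Nop2, a methyltransferase of ribosomal RNA, read 26.9 and 27.1 in knockdown and control cells at day 2, and 19.8 and 18.4 in knockdown and control cells at day 0. Nop16 stood on opposite sides of control on the days, being 1.40-fold lower in knockdown cells at day 2 and 1.18-fold higher at day 0, and Nop2 was close between the cells on both. Rrs1, which in yeast helps to bring the 5S particle into the large subunit, had log2 ratios of -0.11 at day 2 and -0.05 at day 0.

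Over the time course, members were somewhat higher at day 2 in control cells and lay on both sides of their day 0 level in knockdown cells. The median log2 ratio of day 2 over day 0 was 0.03 in knockdown cells, with 18 members above 0, and 0.33 in control cells, with 28 above 0; bright genes had medians of 0.08 and 0.02 and were above 0 in 56.6% and 51.9%. In knockdown cells Myc was called higher and Odc1 lower, where 5.01% of all genes were called higher and 9.07% lower (6.17% and 9.22% of bright genes). In control cells Myc alone was called higher and no member lower, where 20% of all genes were called higher and 8.15% lower (7.6% and 7.75% of bright genes). The knockdown median was below 0 under 6 of the 10 other settings, down to -0.12, and the control median stayed between 0.28 and 0.40.

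After Myc, the greatest day 2 level relative to day 0 was that of Rcl1. Rcl1 read 5.20 in knockdown and 5.28 in control cells at day 2, and 2.90 and 2.68 in knockdown and control cells at day 0. Both day 2 arrays lay above both day 0 arrays, by 1.79-fold in knockdown cells and 1.97-fold in control cells. In control cells Rcl1 was past 2-fold under 5 of the 10 other settings. The largest gaps between the cells were those of Odc1, Dkc1, Nhp2, Nop16, Wdr12, Gar1 and Nolc1, all with a difference between the time courses of over 1.5-fold. Of bright genes, 12.7% were past this size in the same direction. All of the members named but Odc1 were below their day 0 level in knockdown cells and above it in control cells, a pattern held by 11 members. For Gar1 the log2 ratio in control cells was 0.03, and it was -0.05 at the lowest of the 10 other settings. In 17 members day 2 was higher in both kinds of cell and in 4 lower in both. Nop14 was the exception, higher in knockdown and lower in control cells. The shares of bright genes with these patterns were not counted.

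**Figure D3:**
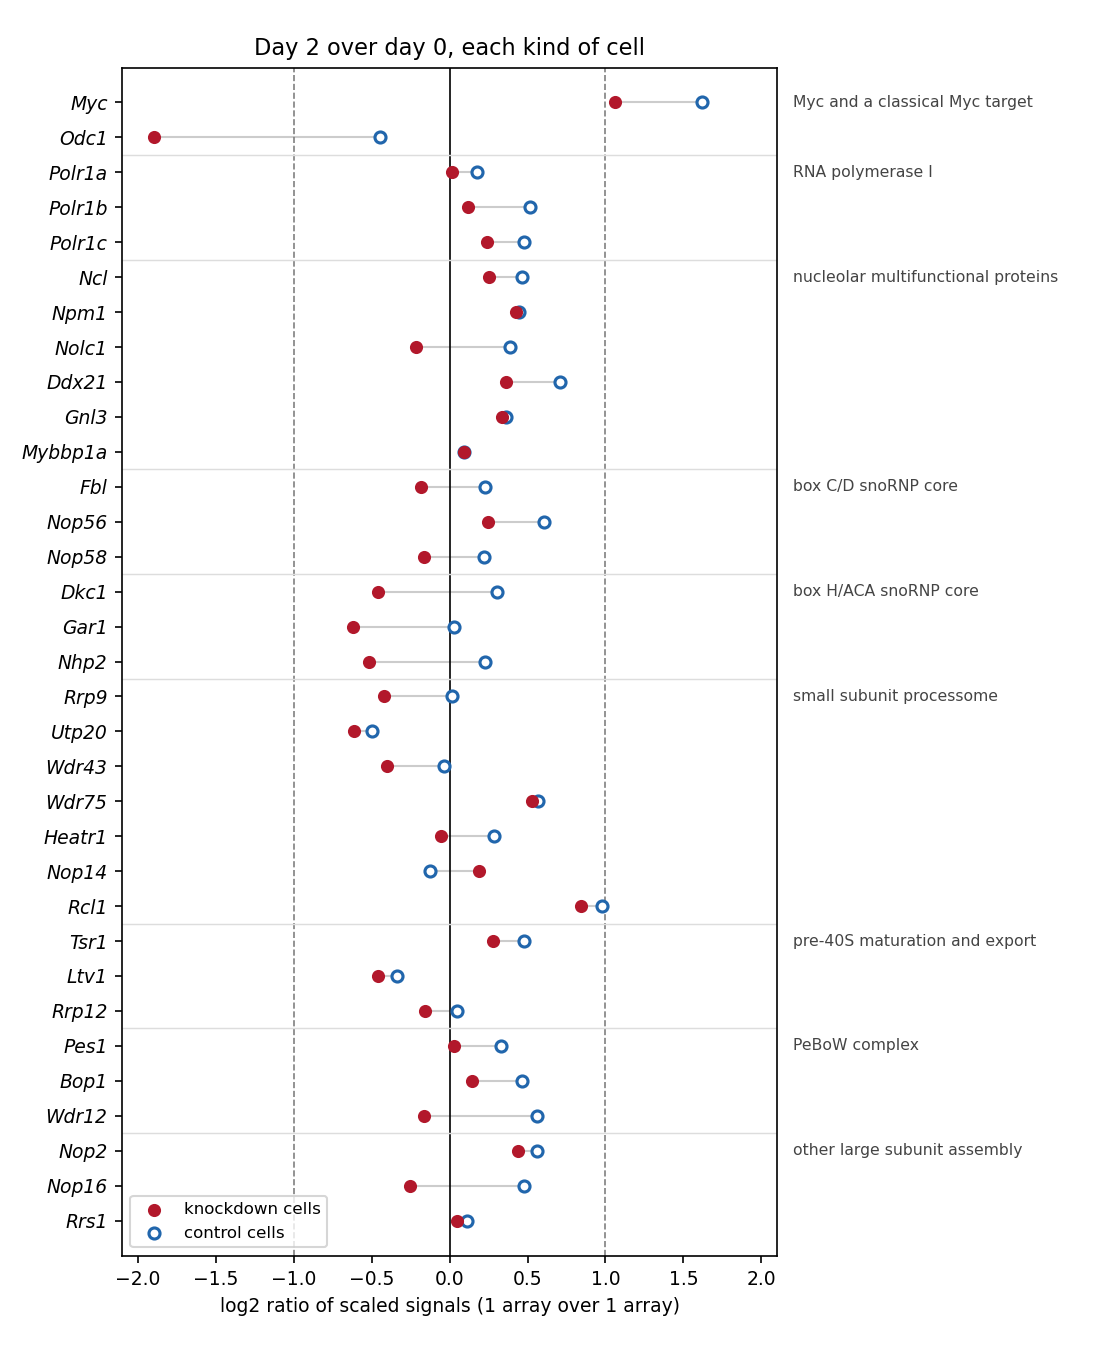
Log2 ratio of scaled signals, day 2 over day 0, for each of the 33 members in knockdown cells (filled) and control cells (open), grouped by role; each point is 1 array over 1 array, and dashed lines mark 2-fold. Myc is past 2-fold in both kinds of cell (1.06 in knockdown and 1.62 in control cells), Odc1 is past it downward in knockdown cells (-1.90), and the box H/ACA genes lie below 0 in knockdown cells and above 0 in control cells.

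Seen by array, 5 members were highest in knockdown cells at day 2, 15 in control cells at day 2, 10 in knockdown cells at day 0 and 3 in control cells at day 0. The lowest array was that of knockdown cells at day 2 in 8 members, of control cells at day 2 in 0, of knockdown cells at day 0 in 6 and of control cells at day 0 in 19. Of bright genes, 34.6% were highest in knockdown cells at day 2, 18.5% in control cells at day 2, 20.5% in knockdown cells at day 0 and 26.5% in control cells at day 0. They were lowest on these arrays, in the same order, in 22.6%, 21.1%, 27.7% and 28.5%. The members varied less among themselves than bright genes did: the interquartile range of the knockdown ratio was 0.29 for members and 0.46 for bright genes at day 2, and 0.39 and 0.57 at day 0.

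Probes of the same member did not always read alike. A second Ddx21 probe read 0.963 in knockdown and 1.44 in control cells at day 2, and 2.26 and 1.46 in knockdown and control cells at day 0. It was 2.35-fold below day 0 in knockdown cells, while the brighter probe was 1.29-fold above. A second Ncl probe read 2.05 and 2.14 in knockdown and control cells at day 2, and 0.888 and 0.956 in knockdown and control cells at day 0, which put day 2 2.31-fold above day 0 in knockdown cells and 2.24-fold in control cells, against 1.19-fold and 1.38-fold on the brighter probe. The second Nolc1 probe was 1.82-fold above day 0 in knockdown cells, where the brighter probe was 1.16-fold below. An Npm1 probe read 26.4 in knockdown and 20.6 in control cells at day 2, and 38.3 and 21.9 in knockdown and control cells at day 0. Its log2 ratio of day 2 over day 0 was -0.53 in knockdown and -0.09 in control cells, where the brightest Npm1 probe gave 0.42 and 0.45 and the other 3 were above 0 in both. A second Wdr43 probe gave a log2 ratio of knockdown over control of 0.22 at day 2, against -0.07 on the probe used. Its difference between days was 0.08 against -0.37, and its knockdown time course 0.10 against -0.40. The files do not say which transcript forms these probes read, and values of Ddx21, Ncl, Nolc1, Npm1 and Wdr43 hold for the brightest probe only.

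Beside the members stand 102 other ribosome assembly genes: further polymerase I, snoRNP, small-subunit and large-subunit factors. Their median log2 ratio of knockdown over control was 0.01 at day 2 and 0.16 at day 0, and the difference between the days was -0.11, with 29 of 102 above 0. None was past 2-fold on either day. Over the time course, Taf1d, a factor of polymerase I initiation, and the helicase Ddx51 were past 2-fold in knockdown cells (log2 ratios of 1.23 and 1.12) and in control cells (1.04 and 1.57), and Rrp1b in control cells (1.14). The 50 cytosolic ribosomal protein genes, the products that these factors assemble, had a difference between the days of -0.00 and none past 2-fold. Their median log2 ratios of day 2 over day 0 were 0.48 in knockdown and 0.50 in control cells, or 0.06 and 0.04 after quantile normalization.

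Between knockdown and control, the medians of the cell division lists had the same signs as the member medians and were larger in size. Over time they were below 0 in both kinds of cell, where the member medians were above 0. The 20 genes of G2 and mitosis had summed scaled signals of 47.3 in knockdown and 61.3 in control cells at day 2, and of 166 in knockdown and 93.3 in control cells at day 0. The 25 S phase genes summed to 149 and 226 in knockdown and control cells at day 2, and to 264 and 226 in knockdown and control cells at day 0. Such sums weigh the brightest probes most. In control cells the S phase sums were both 226, while the median log2 ratio over time was -0.30. In both lists the knockdown day 0 array was the highest and the knockdown day 2 array the lowest. Of the G2 and mitosis genes, 18 of 20 were called lower at day 2 than at day 0 in knockdown cells, as were 14 of 25 S phase genes, against 9.07% of all genes and 9.22% of bright genes. In control cells 4 of 19 and 1 of 25 were called lower, and 1 gene of each list higher, against 8.15% of all genes called lower and 20% called higher. The median log2 ratio of day 2 over day 0 in control cells was -0.66 for G2 and mitosis and -0.30 for S phase, beside 0.33 for the members. In knockdown cells these medians were -1.81 and -1.02, beside 0.03 for the members, which was -0.12 at the lowest of the other settings. The median difference between the days was -1.13 for G2 and mitosis and -0.77 for S phase, beside -0.32 for the 33 members. The part of cell division in the members' values was not tested.

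**Figure D4:**
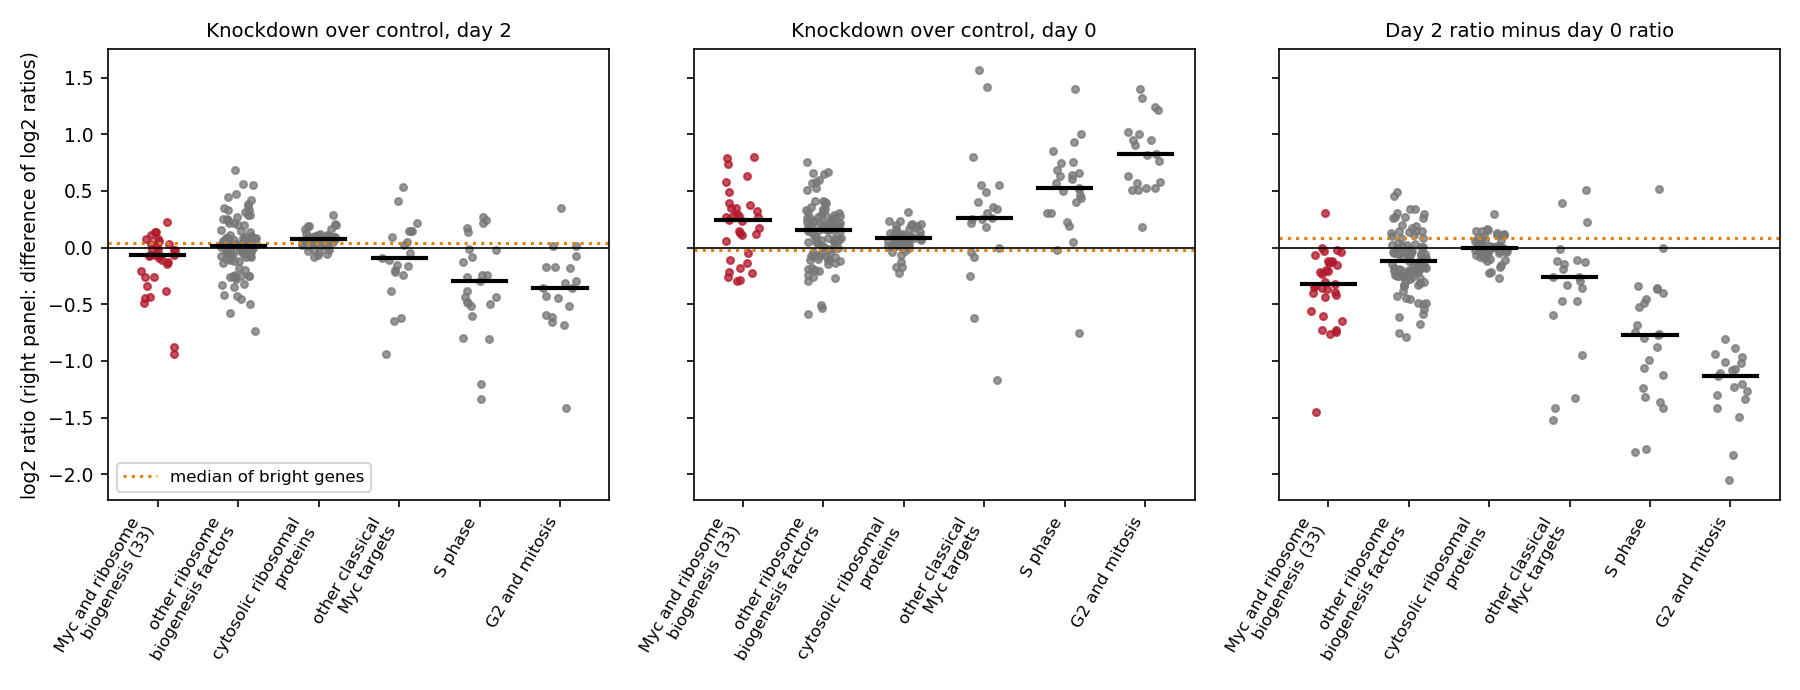
Log2 ratio of knockdown over control at day 2 (left) and day 0 (middle) and their difference (right) for the 33 members (red) and for 5 other lists (grey), 1 point per gene; black bars are list medians and the dotted line is the median of bright genes. In the right panel the members have a median of -0.32, cytosolic ribosomal proteins one of -0.00 and genes of G2 and mitosis one of -1.13.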

How the data were processed

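Total RNA of 4 cultures, labelled with Cy3 per the labels, was hybridised to 1-colour Agilent arrays of design 028005. The deposited files hold the authors' scanner output as intensity values on a linear scale, background-subtracted, per the file headers, by Feature Extraction version 10.7.3.1 and not normalised between arrays. Multiplicative detrending was not applied on the knockdown day 0 array, and control day 0 values are rounded to 3 significant digits. The members, lists and settings were chosen with earlier results of these data known.

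From 59305 non-control spots per array, spots flagged as non-uniform or population outliers were left out, the array's 75th percentile was subtracted on the log2 scale, and repeat spots were averaged. Probes were named through RefSeq accessions (GRCm38.p6): 27656 matched 20972 genes and 28025 did not match. The brightest probe stands for a gene. A gene was compared where well above background on at least 1 of the 2 arrays; where only 1 array measured it, the difference is a bound. The difference between days uses genes measured on all 4 arrays.

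Every member may be named. Scaled signals are given for Myc, Odc1, members past 2-fold in a comparison, and the highest and lowest knockdown ratio at day 2 within each role; Dkc1, Nolc1 and Rcl1 were added after their values were seen. Of each context list, up to 4 genes per direction past 2-fold may be named. Other probes are given where they differ by over 1 on the log2 scale or have the other sign past 0.5. The second Wdr43 probe, under these sizes, was added after its values were seen. The calculation of calls was checked on simulated data that held only error of the size seen between spots. That check cannot give a rate of false calls, since it had no variation between cultures, arrays or slides. With 1 array per group, the number of arrays limits the precision. The 11 other settings were normexp (offset 50), quantile and cyclic loess (3 iterations) normalization, 2 other scalings, 2 other background filters, the median of a gene's probes, outlier spots kept, no detrending and a 1.5-fold size. Python 3.11.15, numpy 2.4.6, pandas 2.3.3, matplotlib 3.10.9, R 4.3.3 and limma 3.58.1 were used.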

Additional observations from a re-analysis of the deposited data

Results flagged for a closer look

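Odc1 went opposite ways on the days: knockdown was below control at day 2 (log2 ratio -0.87) and above it at day 0 (0.58), a difference of -1.45. With 1 array per group this difference was not tested, and it crosses slides. The other 2 Odc1 probes, which the comparisons do not use, gave log2 ratios of knockdown over control at day 2 of -1.04 and -1.10. A second Ddx21 probe gave a log2 ratio of day 2 over day 0 in knockdown cells of -1.23, where the brighter probe gave 0.36. A second Ncl probe gave 1.21 in knockdown and 1.17 in control cells for day 2 over day 0, where the brighter probe gave 0.26 and 0.47.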

How the results depend on the processing

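The member median kept its sign under all 10 other settings for knockdown over control at day 2 and day 0, for the control time course and for the difference between days. For the knockdown time course it is 0.03 and went to -0.0719 with normexp, -0.0752 with quantile, -0.12 with cyclic loess normalization and -0.0625 without detrending. The control time course median was 0.40 when arrays were centred on bright genes. The median difference between days was -0.43 with quantile, -0.42 with cyclic loess normalization and -0.42 with centring on bright genes. Counts of called members moved as follows. In the control time course 2 members were higher (Rcl1 beside Myc) with normexp, quantile, the percentile of probes above background, centring on bright genes, or no detrending. In the knockdown time course 0 were higher with quantile and with cyclic loess normalization, since Myc lay just under 2-fold. With the median of all probes, 1 member, Odc1, was lower in knockdown cells at day 2. At a 1.5-fold size, 2 members were lower in knockdown cells at day 2 and 4 higher at day 0. In the control time course 4 were higher, in the knockdown time course 2 were higher and 3 lower, and 7 were lower in the difference. Of bright genes, 8.0% were lower at day 2 and 12.9% higher at day 0 at this size. In the control time course 16.1% were higher, in the knockdown time course 16.4% higher and 16.1% lower, and 12.7% were lower in the difference. The causes of the shifts with processing were not tested.

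Over all genes, the share of calls that were higher was 81.4% for knockdown over control at day 0, 71.1% in the control time course and 14.7% in the difference between days; with quantile normalization these were 46.0%, 37.3% and 44.7%, and with cyclic loess 36.5%, 30.5% and 56.9%. No paired analysis was possible because each group has 1 array. Dim genes limit the counts over all genes, while all members were bright.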

Other observations

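Odc1 stands at the head of polyamine metabolism. Of 8 further genes of this pathway with a probe, only Smox was past 2-fold between knockdown and control cells. Among all genes compared, 2.89% were 2-fold higher and 4.1% lower at day 2, and 18.4% higher and 4.2% lower at day 0. Smox, which oxidises spermine, read 7.78 in knockdown and 2.91 in control cells at day 2. At day 0 it read 2.48 and 2.83 in knockdown and control cells. The knockdown day 2 array stood alone as the highest, 2.67-fold above control. Srm, which makes spermidine, stood above control in knockdown cells by 1.32-fold at day 2 and 1.31-fold at day 0.

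Among partners and antagonists of Myc, Max read 4.69 in knockdown and 4.74 in control cells at day 2, and 4.54 and 5.59 in knockdown and control cells at day 0. Mxd4 and the dim gene Mxd3, which compete with Myc for Max, had log2 ratios of day 2 over day 0 of -1.08 and -1.64 in knockdown cells. Of all genes, 9.07% were called lower there. The list of partners and antagonists went the other way, with a median of 0.35 in knockdown cells (0.20 to 0.40 over the other settings). In control cells its median was 0.11 (-0.09 to 0.21). Of 21 other classical Myc targets, Slc7a5, an amino acid transporter, was 3.90-fold lower at day 2 in knockdown cells and 4.56-fold lower in control cells, and the telomerase gene Tert was, at day 0, 2.97-fold higher in the knockdown. Of all genes, 8.15% were called lower over time in control cells, and 18.4% higher in the knockdown at day 0. Over these targets, the median log2 ratio of knockdown over control was -0.10 at day 2 and 0.26 at day 0. Their median of day 2 over day 0 was 0.33 in control cells (0.004 to 0.41 over the other settings). In knockdown cells it was -0.08 (-0.26 to 0.01).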
